A study of Homo sapiens and Mus musculus with 24 samples.

Results

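The genes described here are 29 named enzymes, regulators and carriers of cholesterol and fatty acid synthesis, measured in LNCaP, an established line of human prostate cancer cells that respond to androgen. They were chosen by symbol from the 44564 gene names of the deposited LNCaP table, and all 29 were among the 16042 genes that passed the filter on low values. The table holds 12 libraries in 6 groups of 2 biological replicates, and the other 12 libraries of the series, from fibroblasts, were not analysed here. LNCaP cells, with genotype WT in the labels, received 1 µM of the androgen receptor antagonist enzalutamide or the vehicle DMSO, and RNA was taken at day 7, in RPMI medium with fetal bovine serum. Under either agent they were grown with fibroblasts called CRPCCAFs, with fibroblasts called CCAFs, or alone. Titles of the CRPCCAF libraries carry the tag p53_ca and those of the CCAF libraries the tag p53. Fibroblast libraries of the same series, from cancer associated fibroblasts isolated from mice that carry a Trp53PC-/- allele among others, are titled p53, or ca where the mice are marked ADT. No label of the LNCaP libraries spells out CCAF or CRPCCAF, states that these are the same fibroblasts, or says whether LNCaP cells were separated from them before RNA extraction. All groups come from a single cell line, so the replicates measure the spread between cultures of that line.

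Cholesterol is built from acetyl-CoA through mevalonate, farnesyl diphosphate, squalene and a chain of sterols, and fatty acids are built from the same acetyl-CoA and then desaturated and elongated. Most of these enzymes are controlled at transcription by the SREBP factors, which stay in the endoplasmic reticulum while sterol is plentiful and move to the nucleus when it is scarce. In prostate cells, androgens are known to raise the expression of lipid synthesis genes.

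Promoter sequences are shown for SREBF2 and INSIG1, which encode a factor and a brake of this feedback, and for TM7SF2 and EBP, the member with the largest rise under enzalutamide and the one with the largest fall under it both with CRPCCAFs and alone. Each is the stretch of 250 bases before the gene's start in RefSeq on the GRCh38.p14 assembly, 5′ to 3′ on the plus strand, at chr22:41832855-41833104 for SREBF2, chr7:155297628-155297877 for INSIG1, chr11:65111622-65111871 for TM7SF2 and chrX:48521558-48521807 for EBP. Capitals mark matches, on either strand, to the sterol regulatory element TCACNCCAC, the CCAAT box, the E-box CACGTG and the GC box GGGCGG.
SREBF2: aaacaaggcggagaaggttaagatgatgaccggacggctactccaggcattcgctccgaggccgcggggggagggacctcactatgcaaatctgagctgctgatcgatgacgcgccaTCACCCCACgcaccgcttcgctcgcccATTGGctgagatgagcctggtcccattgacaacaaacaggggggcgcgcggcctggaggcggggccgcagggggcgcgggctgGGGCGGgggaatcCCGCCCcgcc
INSIG1: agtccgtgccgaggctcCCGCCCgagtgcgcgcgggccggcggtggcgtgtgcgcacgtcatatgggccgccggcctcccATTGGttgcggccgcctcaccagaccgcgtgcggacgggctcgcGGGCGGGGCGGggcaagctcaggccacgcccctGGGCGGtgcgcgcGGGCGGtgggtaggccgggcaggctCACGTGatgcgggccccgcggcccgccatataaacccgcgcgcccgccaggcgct
TM7SF2: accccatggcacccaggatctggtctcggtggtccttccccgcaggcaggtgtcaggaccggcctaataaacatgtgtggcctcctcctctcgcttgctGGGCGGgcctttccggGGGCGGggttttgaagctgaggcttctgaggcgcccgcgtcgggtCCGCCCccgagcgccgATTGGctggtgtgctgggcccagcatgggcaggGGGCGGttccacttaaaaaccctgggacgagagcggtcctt
EBP: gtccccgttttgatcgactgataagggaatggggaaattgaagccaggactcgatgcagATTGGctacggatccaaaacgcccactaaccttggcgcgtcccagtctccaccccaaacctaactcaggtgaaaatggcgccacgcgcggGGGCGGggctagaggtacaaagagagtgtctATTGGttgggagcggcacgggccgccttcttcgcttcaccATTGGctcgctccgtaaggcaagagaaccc
RefSeq promoter entries matched 25 of the 29 members by symbol, with 34 entries in all, and did not include ACAT2, FDFT1, SQLE and FASN. A CCAAT box lay in 23 of the 34 entries (67.6%), against 32.0% of all 35116 promoters of the same length. A GC box lay in 30 of the 34 (88.2%), against 42.6% of all promoters. An E-box was found in 3 (8.82%), against 6.34%, and the sterol regulatory element letters in 1 (2.94%), that of SREBF2, against 0.883%. Windows of the same gene can overlap, so a site can count in more than 1 entry, as the E-box of SC5D did. By gene, 19 of the 25 members had a CCAAT box, 24 a GC box, 2 an E-box and 1 the sterol regulatory element letters. The same count over all genes was not made. These are matches of letters in a short window, not binding sites, and the part of base composition in these shares was not tested.

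**Figure D1:**
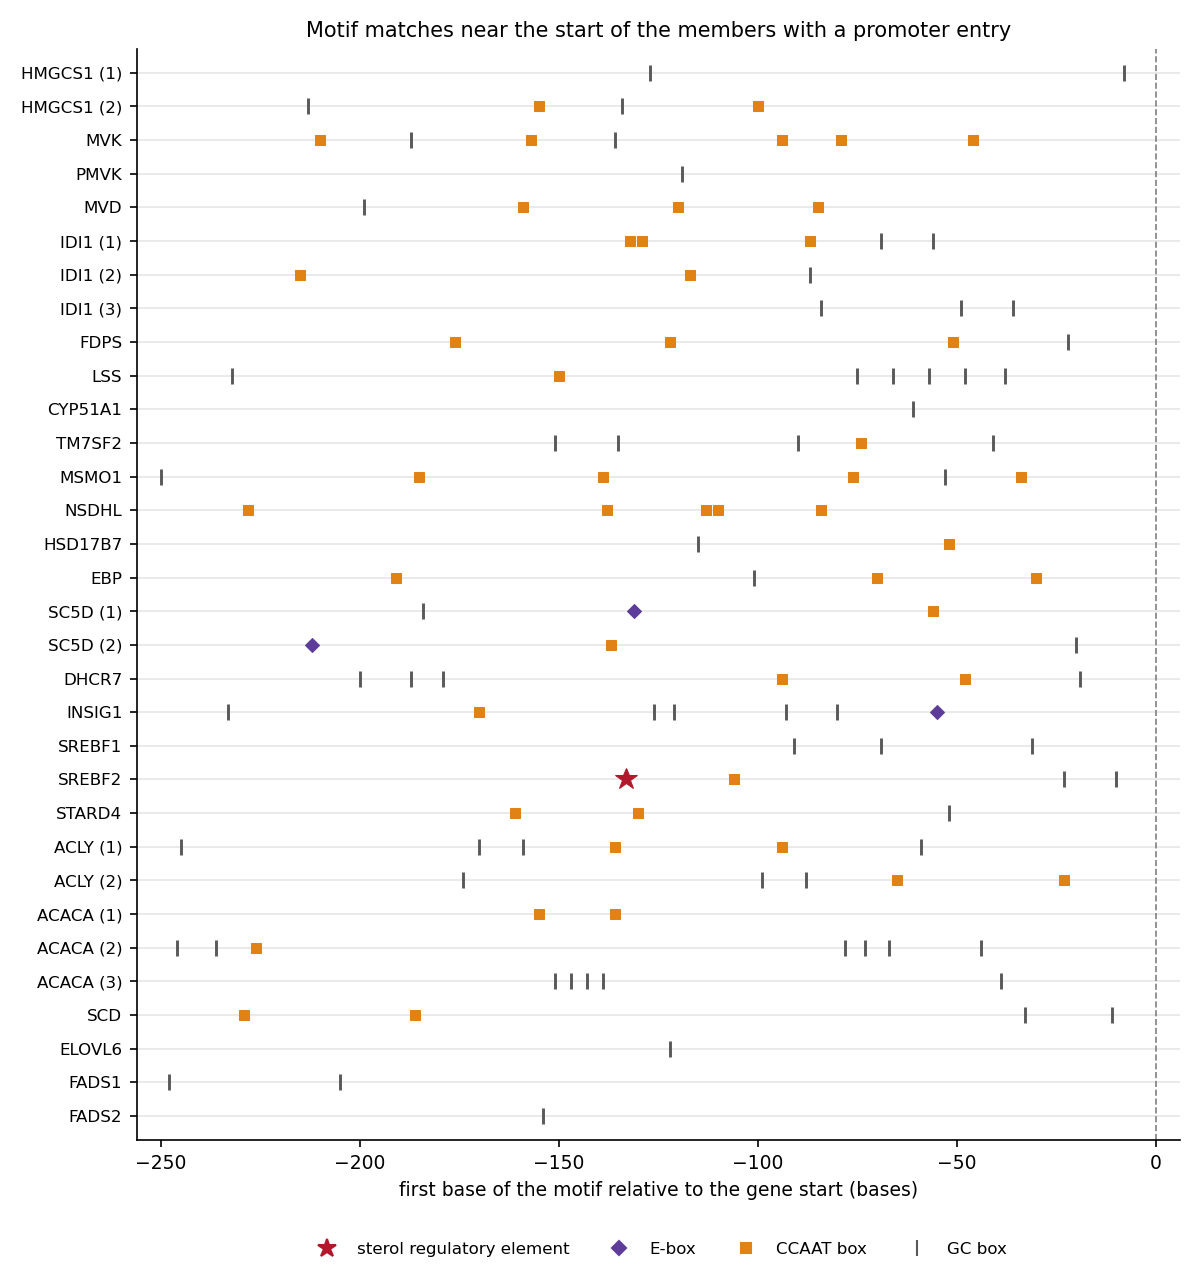
Positions of the 4 motifs in the 250 bases before the gene start, for the 32 RefSeq entries of 25 members that hold at least 1 match, with entries of the same gene numbered. The x axis gives the distance of the first base of a match from the start, in bases. GC boxes and CCAAT boxes recur down the list, whereas the sterol regulatory element letters appear for SREBF2 alone.

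The authors' values are RPKM (reads scaled to gene length and to library size), which can be set side by side between genes because they are scaled to length. Their smallest steps gave 17850431 to 22187880 reads per library. Between 300 reads (MVK) and 31514 reads (SCD) lay behind a single value of a member, so the counting error was at most 5.77%. All 8 luminal epithelial markers looked at, KLK3 and KRT8 among them, were at 1 RPKM or more in all groups. Their summed level was 1666 to 1681 RPKM with CRPCCAFs under enzalutamide and 3582 to 3686 under DMSO, 1957 to 2008 RPKM with CCAFs under enzalutamide and 3370.0 to 3388 under DMSO, and 1556 to 1599 RPKM alone under enzalutamide and 2498 to 2633 under DMSO, so it was lower under enzalutamide in every culture. Its part in the members' differences was not tested. Of 16 fibroblast markers, 11 stayed under 1 RPKM in all 12 libraries, with COL1A2, DCN, PDGFRA, PDGFRB and POSTN among them and 0.665 RPKM (LUM) as the highest value. The other 5 were COL1A1, COL5A1, COL6A1, COL6A2 and FN1. Of these, FN1 at 38.1 to 186.6 RPKM and COL6A1 at 28.0 to 59.4 RPKM made up most of the sum. Both were present in all 12 libraries, those of cells alone included, so the sum is not a measure of fibroblast content. Labels of the LNCaP libraries do not give the species of the cocultured fibroblasts. Under human gene names, low values of the other markers therefore do not show that fibroblast RNA was absent. The summed level of the 16 was 269.7 to 278.9 RPKM with CRPCCAFs under enzalutamide and 185.5 to 195.2 under DMSO, 129.2 to 130.5 RPKM with CCAFs under enzalutamide and 113.8 to 118.5 under DMSO, and 138.2 to 139.4 RPKM alone under enzalutamide and 82.1 to 82.5 under DMSO. COL1A2, COL6A3, DCN, THY1, FAP, POSTN and SPARC were at 0 in at least 1 library. CD68, a macrophage marker, was at 4.37 to 22.3 RPKM, PTPRC and CD14 were under 0.1 RPKM, and the sum of the 3 was 21.5 to 22.4 RPKM with CRPCCAFs under enzalutamide and under 10 RPKM elsewhere. The part of these markers in the results was not tested.

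Levels of the members in LNCaP cells alone under DMSO spanned a wide range. FADS2 was highest at 199 ± 6.22 RPKM (SD, n = 2), followed by SCD at 145 ± 1.62, TM7SF2 at 144 ± 8.93, FASN at 139.5 ± 0.0704 and ACLY at 139 ± 2.00 RPKM. From SCD to ACLY, each gene was closer to its neighbour in this order than the larger of their SDs. STARD4 was lowest at 8.93 ± 0.181 RPKM, below MVD at 9.81 ± 1.21 and HSD17B7 at 11.8 ± 0.0578 RPKM, and the difference between STARD4 and MVD was within the SD of MVD. By group mean, 15 of the 29 members were lowest in cells with CRPCCAFs under enzalutamide and 11 were highest in cells with CRPCCAFs under DMSO. The same shares over all genes were not computed, so nothing particular to the members is read from these counts.

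Most of the pathway was lower under enzalutamide in each culture. With CRPCCAFs, 3 members rose and 24 fell, 27 of 29 called in all, against 55.2% of all 16042 genes tested, of which 30.5% rose and 24.7% fell. With CCAFs, 3 rose and 22 fell, 25 in all, against 48.3% of all genes, with 26.8% that rose and 21.5% that fell. Alone, 3 rose and 20 fell, 23 in all, against 55.4% of all genes, with 30.1% that rose and 25.3% that fell. The median log2 difference of the 29 members was -0.56 with CRPCCAFs, -0.35 with CCAFs and -0.26 alone, where that of all genes was 0.051, 0.046 and 0.042. A difference is given on log2(RPKM + 1), as enzalutamide minus DMSO, and passed when limma's p, adjusted by Benjamini-Hochberg over all genes, was under 0.05. These comparisons share no library. In all 3 cultures, 18 members fell, against 16.3% of all genes, and 2 rose, TM7SF2 and SC5D, against 19.6%. No called member had overlapping libraries between enzalutamide and DMSO, but with 2 libraries a group a call largely entails this. The share over all called genes was not computed, so nothing about the members is read from it. Bulk RNA was measured, so fewer cells of a type and less RNA per cell cannot be told apart.

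**Figure D2:**
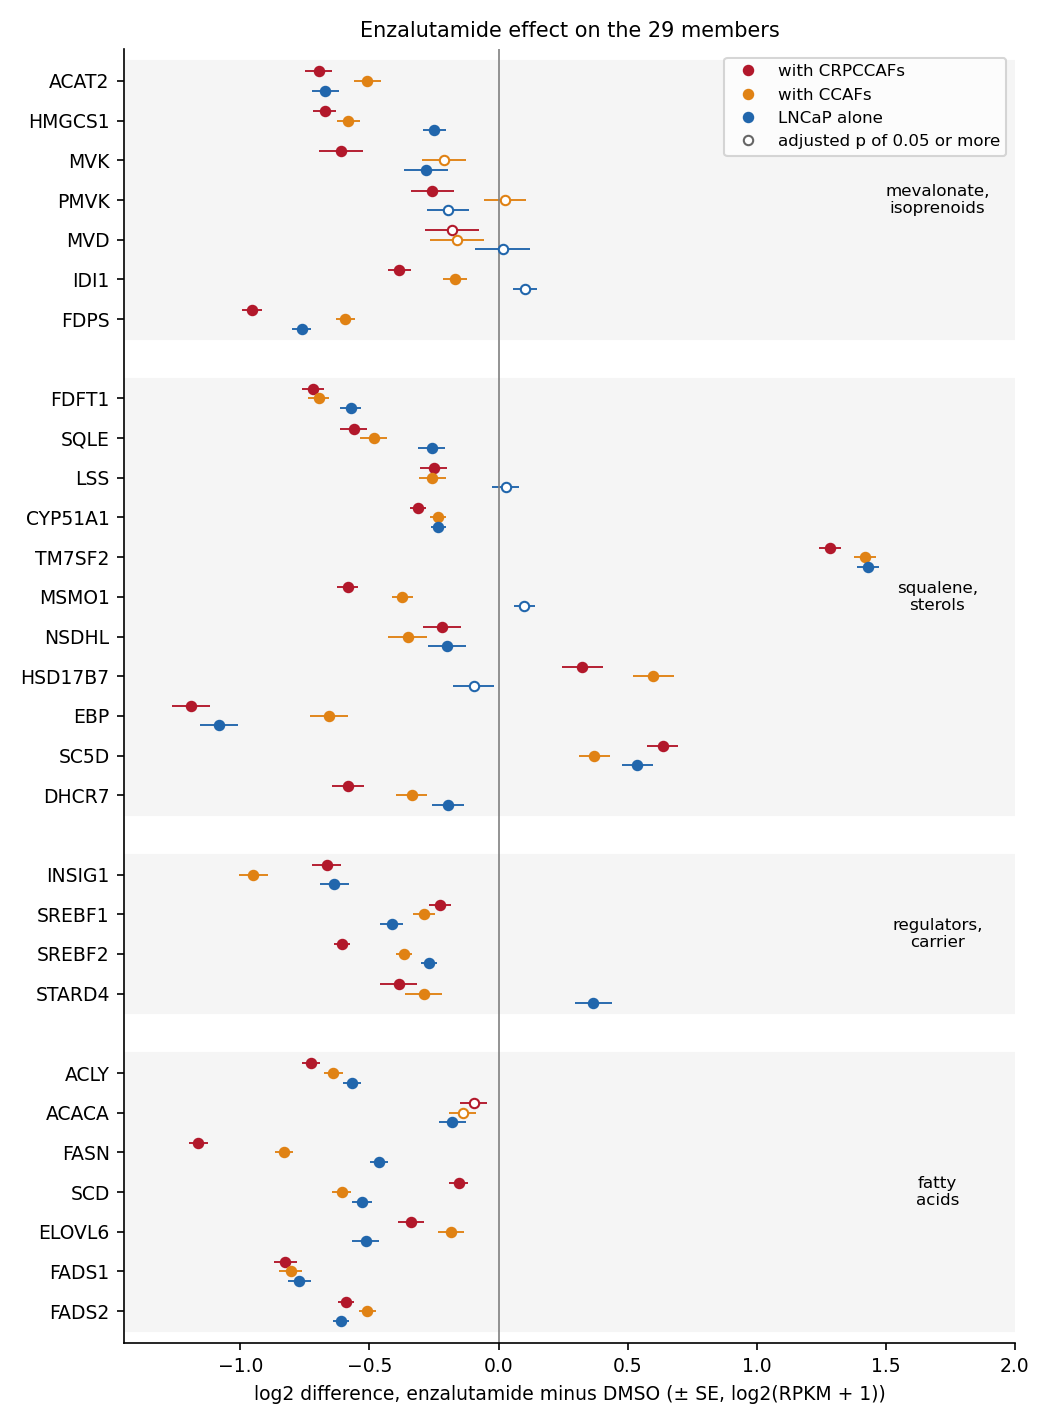
Log2 difference between enzalutamide and DMSO for the 29 members, in cells with CRPCCAFs (red), with CCAFs (orange) and alone (blue), with bars for the standard error of the fit over 12 libraries and shaded bands for the roles. Filled points passed an adjusted p of 0.05. Most points lie left of 0, TM7SF2 lies farthest to the right in every culture, and STARD4 lies right of 0 alone and left of 0 in both cocultures.

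Among the 7 genes of the mevalonate and isoprenoid steps, 0 rose and 6 fell with CRPCCAFs, 0 rose and 4 fell with CCAFs, and 0 rose and 4 fell alone. ACAT2, the cytosolic thiolase that joins acetyl-CoA units, had 17.02 and 17.03 RPKM under enzalutamide against 27.8 and 28.7 under DMSO with CRPCCAFs, 24.9 and 23.7 under enzalutamide against 34.5 and 35.5 under DMSO with CCAFs, and 22.6 and 24.8 under enzalutamide against 39.6 and 37.04 under DMSO alone. It fell in every culture, by 0.70 with CRPCCAFs, 0.51 with CCAFs and 0.67 alone on the log2 scale (SE 0.0525). Its lowest pair of libraries was that with CRPCCAFs under enzalutamide. HMGCS1, the synthase that commits acetyl-CoA to mevalonate, had 18.1 and 17.4 RPKM under enzalutamide against 29.8 and 28.0 under DMSO with CRPCCAFs, 17.1 and 16.7 under enzalutamide against 25.5 and 26.0 under DMSO with CCAFs, and 20.1 and 20.2 under enzalutamide against 23.5 and 24.8 under DMSO alone. It fell by 0.67 with CRPCCAFs (adjusted p = 1.3e-06), 0.58 with CCAFs (adjusted p = 5.8e-06) and 0.25 alone (adjusted p = 0.001). The fall was larger with CRPCCAFs than alone, by a difference of effects of -0.42 (SE 0.0629, adjusted p = 0.0037).

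FDPS, which makes farnesyl diphosphate for sterols and for protein prenylation, had 34.3 and 34.98 RPKM under enzalutamide against 68.1 and 68.03 under DMSO with CRPCCAFs, 45.8 and 44.8 under enzalutamide against 69.6 and 68.2 under DMSO with CCAFs, and 38.8 and 39.6 under enzalutamide against 69.3 and 65.2 under DMSO alone. Its DMSO libraries lay close together in all 3 cultures, and every enzalutamide library lay well below them. FDPS fell 1.97-fold with CRPCCAFs, 1.52-fold with CCAFs and 1.72-fold alone, or by 0.96, 0.59 and 0.76 on the log2 scale (adjusted p = 3.5e-08, 1.5e-06 and 1.5e-07). IDI1, the isomerase of the isoprenoid units, had 18.9 and 19.4 RPKM under enzalutamide against 26.2 and 24.5 under DMSO with CRPCCAFs, 23.01 and 23.4 under enzalutamide against 26.02 and 26.4 under DMSO with CCAFs, and 27.4 and 26.1 under enzalutamide against 25.5 and 24.3 under DMSO alone. It fell by 0.38 with CRPCCAFs and by 0.17 with CCAFs, a call that was lost without enzalutamide replicate 1 or DMSO replicate 2 of the CCAF coculture (adjusted p up to 0.0665). In cells alone the enzalutamide libraries lay slightly above the DMSO libraries and the difference of 0.10 did not pass (adjusted p = 0.082). The effects with CRPCCAFs and alone differed by -0.49 (SE 0.0639, adjusted p = 0.0019). PMVK, the second kinase of the route, had 18.5 and 20.6 RPKM under enzalutamide against 22.6 and 24.5 under DMSO with CRPCCAFs, 24.8 and 24.4 under enzalutamide against 25.7 and 22.7 under DMSO with CCAFs, and 25.2 and 28.9 under enzalutamide against 30.1 and 32.04 under DMSO alone. It passed only with CRPCCAFs, at -0.26 (adjusted p = 0.024), and this call was lost without enzalutamide replicate 1 or DMSO replicate 2 of that coculture (adjusted p up to 0.157). MVK, the first kinase, ranged over 7.96 to 14.3 RPKM and fell by 0.61 with CRPCCAFs and 0.28 alone, where the call was lost without either enzalutamide library or DMSO replicate 2 (adjusted p up to 0.0947). MVD, the decarboxylase, ranged over 8.95 to 13.8 RPKM and passed in none of the 3 comparisons, with differences of -0.18, -0.16 and 0.016 with CRPCCAFs, with CCAFs and alone (adjusted p = 0.18, 0.24 and 0.91).

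The 11 genes of the squalene and sterol steps moved in opposite directions. With CRPCCAFs 3 rose and 8 fell, with CCAFs 3 rose and 8 fell, and alone 2 rose and 6 fell. TM7SF2, a sterol reductase that acts soon after lanosterol, had 265 and 263 RPKM under enzalutamide against 105 and 111 under DMSO with CRPCCAFs, 298 and 294 under enzalutamide against 110.0 and 109.9 under DMSO with CCAFs, and 389 and 391 under enzalutamide against 150.4 and 138 under DMSO alone. Enzalutamide libraries exceeded DMSO libraries in every culture with a wide gap. TM7SF2 rose 2.45-fold with CRPCCAFs, 2.69-fold with CCAFs and 2.71-fold alone (log2 differences of 1.28, 1.42 and 1.43, SE 0.0425, adjusted p = 1.4e-08, 1.7e-08 and 7.2e-09). With this gene counted, the summed level of the 11 was 535 RPKM in both libraries with CRPCCAFs under enzalutamide against 483 and 494 under DMSO, 582 and 581 with CCAFs under enzalutamide against 479 in both under DMSO, and 665 and 672 alone under enzalutamide against 499.8 and 480.1 under DMSO. The median log2 difference of the 11 was -0.31 with CRPCCAFs, -0.34 with CCAFs and -0.20 alone. The higher sum thus follows TM7SF2 and not most of the 11 genes. SC5D, a desaturase near the end of the route, had 33.5 and 32.6 RPKM under enzalutamide against 22.1 and 19.9 under DMSO with CRPCCAFs, 20.3 and 19.4 under enzalutamide against 14.8 and 15.4 under DMSO with CCAFs, and 22.6 and 21.7 under enzalutamide against 14.3 and 15.6 under DMSO alone. It too was higher under enzalutamide everywhere, by 0.64 with CRPCCAFs, 0.37 with CCAFs and 0.54 alone (adjusted p = 1.5e-05, 0.00066 and 4.4e-05).

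EBP, the isomerase that shifts the sterol double bond, had 24.7 and 28.02 RPKM under enzalutamide against 59.6 and 63.3 under DMSO with CRPCCAFs, 42.5 and 41.5 under enzalutamide against 66.4 and 66.96 under DMSO with CCAFs, and 30.6 and 34.2 under enzalutamide against 73.4 and 66.05 under DMSO alone. Its enzalutamide libraries were low in all cultures, and least so with CCAFs. EBP fell 2.33-fold with CRPCCAFs, 1.59-fold with CCAFs and 2.15-fold alone, or by 1.19, 0.66 and 1.08 on the log2 scale (SE 0.0737, adjusted p = 8.6e-07, 6.9e-05 and 1.6e-06). The effects with CRPCCAFs and with CCAFs differed by -0.54 (adjusted p = 0.015), a call that was lost without 5 of the 8 libraries in turn: both CCAF libraries under DMSO, CCAF enzalutamide replicate 1, CRPCCAF enzalutamide replicate 1 and CRPCCAF DMSO replicate 2 (adjusted p up to 0.0575). SQLE, squalene epoxidase, had 15.5 and 17.4 RPKM under enzalutamide against 25.3 and 24.1 under DMSO with CRPCCAFs, 19.4 and 19.3 under enzalutamide against 27.6 and 27.3 under DMSO with CCAFs, and 21.7 and 21.6 under enzalutamide against 25.9 and 26.3 under DMSO alone. It fell by 0.56 with CRPCCAFs, 0.48 with CCAFs and 0.26 alone (adjusted p = 1.3e-05, 4.9e-05 and 0.002), with no overlap of libraries. CYP51A1, the lanosterol demethylase, had 33.3 and 33.4 RPKM under enzalutamide against 41.9 and 41.4 under DMSO with CRPCCAFs, 40.03 and 39.8 under enzalutamide against 47.6 and 46.7 under DMSO with CCAFs, and 42.7 and 43.9 under enzalutamide against 51.1 and 50.9 under DMSO alone. Its replicates lay close together and its falls were small, at 0.31, 0.23 and 0.23 with CRPCCAFs, with CCAFs and alone (SE 0.0308).

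MSMO1, the methylsterol monooxygenase that follows it, had 33.9 and 32.95 RPKM under enzalutamide against 51.3 and 49.98 under DMSO with CRPCCAFs, 33.7 and 33.5 under enzalutamide against 43.4 and 44.3 under DMSO with CCAFs, and 41.4 and 42.8 under enzalutamide against 37.8 and 40.6 under DMSO alone. It fell by 0.58 with CRPCCAFs and 0.37 with CCAFs, while alone its enzalutamide libraries were the higher pair, with a difference of 0.10 that did not pass (adjusted p = 0.061). The effect differed from that in cells alone by -0.68 with CRPCCAFs (adjusted p = 0.00017) and by -0.47 with CCAFs (adjusted p = 0.001). HSD17B7, a reductase of keto-sterols that can also form estradiol, had 17.1 and 15.9 RPKM under enzalutamide against 11.97 and 14.1 under DMSO with CRPCCAFs, 19.5 and 20.9 under enzalutamide against 12.9 and 13.1 under DMSO with CCAFs, and 10.3 and 11.7 under enzalutamide against 11.8 and 11.8 under DMSO alone. It rose by 0.32 with CRPCCAFs and 0.60 with CCAFs, and did not pass alone (-0.10, adjusted p = 0.33). The effect with CCAFs exceeded that alone by 0.70 (SE 0.112, adjusted p = 0.0054). A near-identical copy, HSD17B7P2, was listed at 3.17 to 5.67 RPKM, so reads could have been split between the 2 and the values of HSD17B7 are uncertain.

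FDFT1, squalene synthase, ranged over 39.4 to 84.4 RPKM and fell by 0.72 with CRPCCAFs, 0.70 with CCAFs and 0.57 alone. LSS, which closes squalene into lanosterol, ranged over 12.9 to 16.4 RPKM and fell by 0.25 with CRPCCAFs and 0.26 with CCAFs, but was near 0 alone (0.028, adjusted p = 0.68). DHCR7, the reductase that forms cholesterol itself, ranged over 33.4 to 54.5 RPKM and fell by 0.58 with CRPCCAFs, 0.34 with CCAFs and 0.20 alone. NSDHL, a dehydrogenase of the demethylation steps, ranged over 12.4 to 19.5 RPKM and fell by 0.22, 0.35 and 0.20 with CRPCCAFs, with CCAFs and alone. Some of these calls were lost when 1 library was left out. Alone, that of DHCR7 was lost without enzalutamide replicate 2 or either DMSO library (adjusted p up to 0.165). That of NSDHL was lost alone without either enzalutamide library or DMSO replicate 1 (up to 0.262), and with CRPCCAFs without enzalutamide replicate 1 or either DMSO library (up to 0.185).

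The regulators and the carrier fell in both cocultures, 4 of 4, and alone 3 of 4 fell and 1 rose. INSIG1, which holds SREBP factors in the endoplasmic reticulum and is itself one of their target genes, had 44.1 and 44.96 RPKM under enzalutamide against 72.1 and 70.4 under DMSO with CRPCCAFs, 30.2 and 30.6 under enzalutamide against 57.01 and 62.5 under DMSO with CCAFs, and 25.4 and 27.3 under enzalutamide against 43.3 and 39.8 under DMSO alone. It fell 1.60-fold with CRPCCAFs, 1.96-fold with CCAFs and 1.58-fold alone (adjusted p = 6.8e-06, 1.1e-06 and 8.6e-06). Even so, the enzalutamide libraries with CRPCCAFs were above both DMSO libraries of cells alone. SREBF1, which encodes the SREBP factor tied mostly to fatty acid synthesis, had 73.6 and 71.5 RPKM under enzalutamide against 82.1 and 88.2 under DMSO with CRPCCAFs, 69.3 and 70.4 under enzalutamide against 86.6 and 84.5 under DMSO with CCAFs, and 58.01 and 58.5 under enzalutamide against 80.3 and 75.7 under DMSO alone. It fell by 0.23 with CRPCCAFs, 0.29 with CCAFs and 0.41 alone (SE 0.0431). None of the differences between these effects passed for SREBF1 (adjusted p = 0.11 for CRPCCAF minus alone, 0.28 for CCAF minus alone and 0.63 for CRPCCAF minus CCAF). SREBF2, which encodes the factor tied mostly to cholesterol synthesis, had 37.9 and 37.5 RPKM under enzalutamide against 57.2 and 58.8 under DMSO with CRPCCAFs, 45.1 and 46.2 under enzalutamide against 59.2 and 58.95 under DMSO with CCAFs, and 44.6 and 45.6 under enzalutamide against 54.1 and 55.02 under DMSO alone. Its DMSO libraries exceeded all enzalutamide libraries of the 3 cultures. The fall was 0.61 with CRPCCAFs, 0.37 with CCAFs and 0.27 alone, and it was larger with CRPCCAFs than alone by a difference of -0.34 (SE 0.0448, adjusted p = 0.002). STARD4, a carrier that moves cholesterol between membranes, had 11.1 and 12.5 RPKM under enzalutamide against 16.6 and 14.8 under DMSO with CRPCCAFs, 10.8 and 10.1 under enzalutamide against 12.4 and 13.5 under DMSO with CCAFs, and 11.8 and 11.8 under enzalutamide against 9.06 and 8.80 under DMSO alone. It rose by 0.37 alone (adjusted p = 0.0016) and fell by 0.39 with CRPCCAFs and 0.29 with CCAFs (adjusted p = 0.0012 and 0.0076). The call with CCAFs was lost without enzalutamide replicate 2 or DMSO replicate 2 of that coculture (adjusted p up to 0.0618). Against cells alone, the effect differed by -0.75 with CRPCCAFs and -0.66 with CCAFs (adjusted p = 0.002 and 0.0041).

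**Figure D3:**
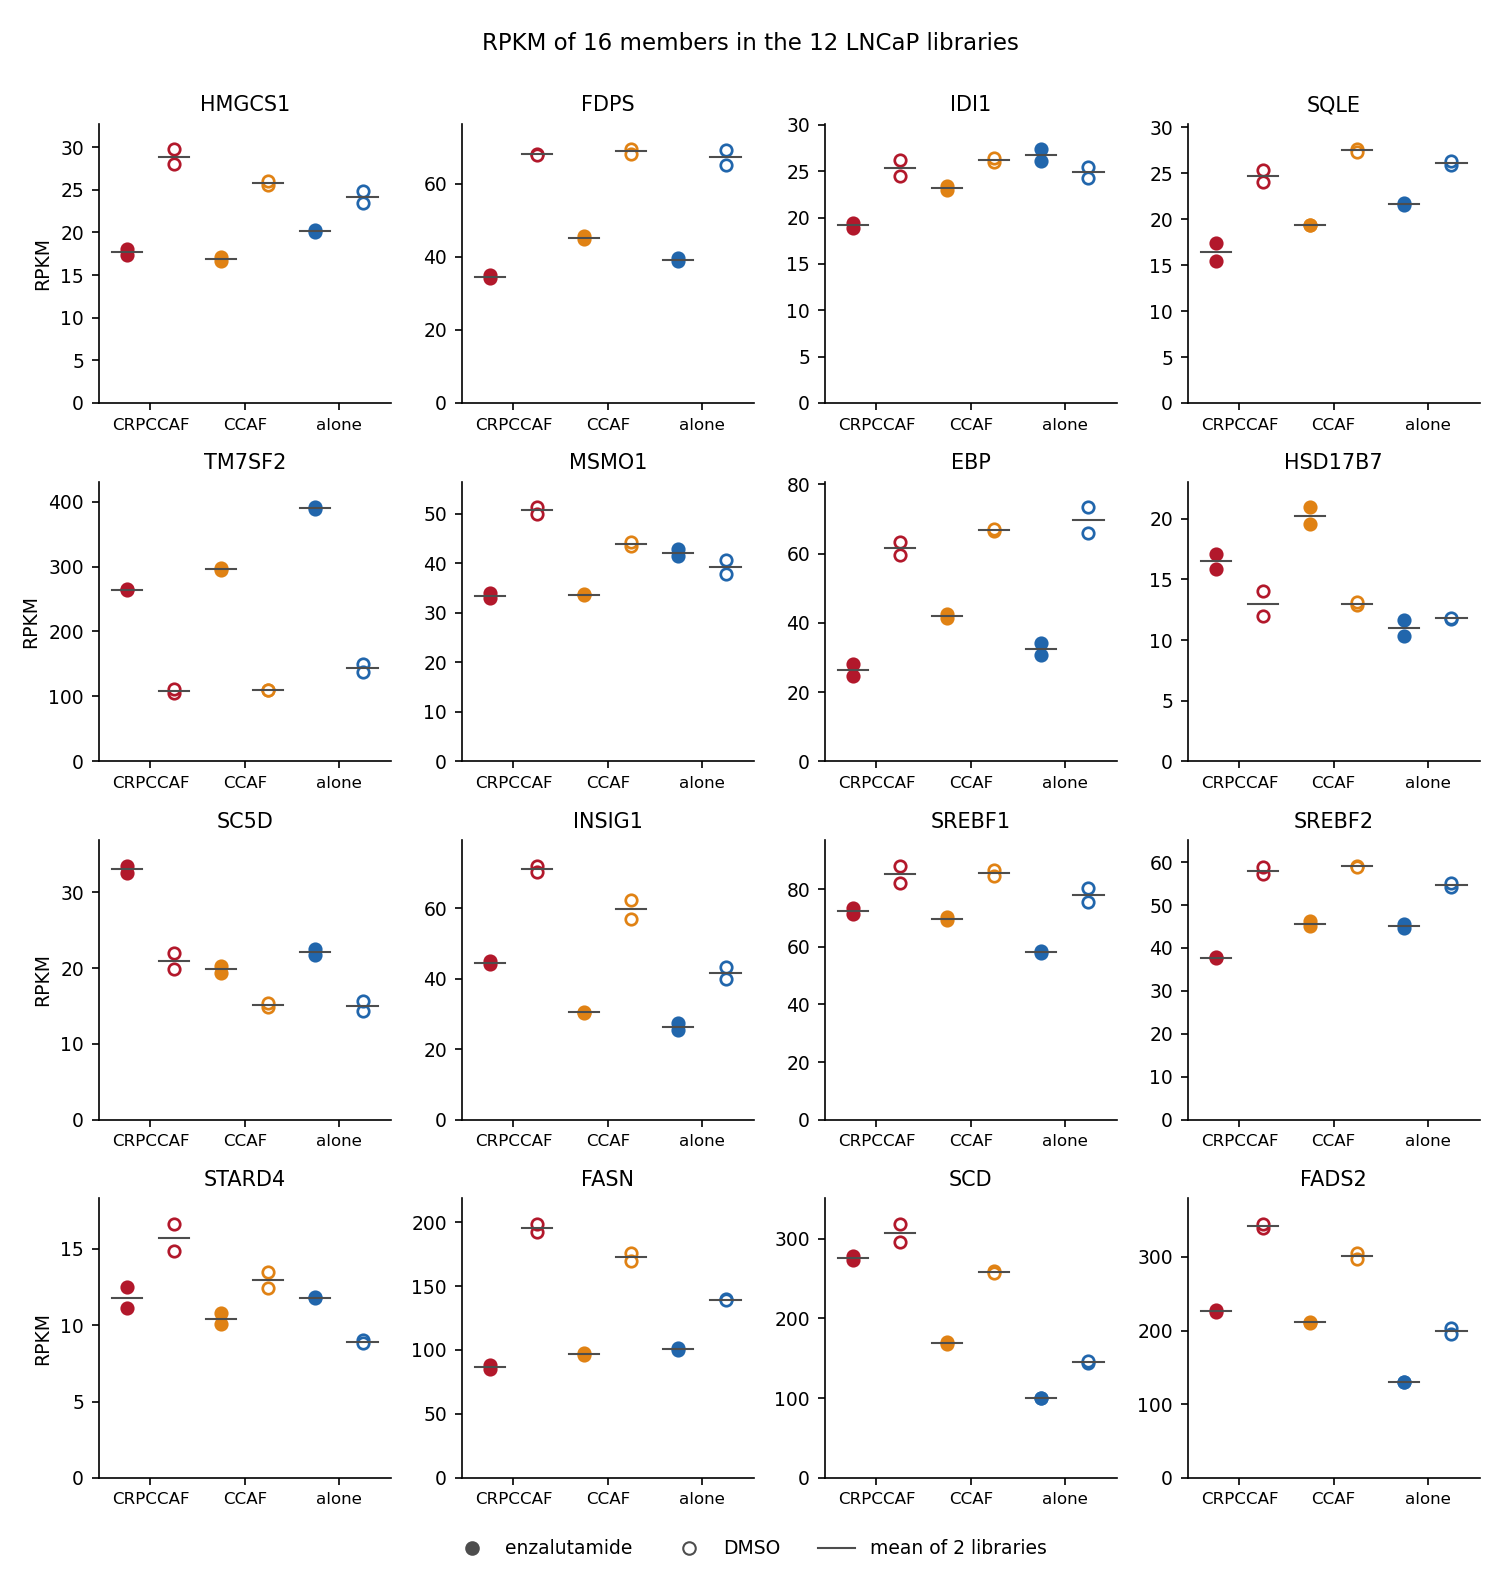
RPKM of 16 members in each of the 12 libraries, with cells grown with CRPCCAFs (red), with CCAFs (orange) or alone (blue), under enzalutamide (filled) or DMSO (open); each point is 1 library and each line the mean of 2. TM7SF2 is high in all filled points, SCD steps down with CRPCCAFs, with CCAFs and alone under either agent, and FASN spreads under DMSO while its enzalutamide points lie close together.

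All 7 genes of the fatty acid steps fell alone, and 6 of 7 fell with CRPCCAFs and with CCAFs, with none that rose. Their median log2 difference was -0.59 with CRPCCAFs, -0.61 with CCAFs and -0.53 alone. FASN, which builds palmitate, had 88.7 and 84.8 RPKM under enzalutamide against 192 and 199 under DMSO with CRPCCAFs, 97.3 and 95.9 under enzalutamide against 176 and 169 under DMSO with CCAFs, and 100 and 102 under enzalutamide against 139.5 and 139 under DMSO alone. The enzalutamide libraries of all cultures lay in a narrow band, and the DMSO libraries lay above them at heights that differed by culture. FASN fell 2.25-fold with CRPCCAFs, 1.79-fold with CCAFs and 1.38-fold alone (log2 -1.16, -0.83 and -0.46, SE 0.0353, adjusted p = 7.9e-09, 1.7e-07 and 3.4e-06). Each of the 3 effects differed from the others, by -0.70 for CRPCCAF minus alone, -0.37 for CCAF minus alone and -0.33 for CRPCCAF minus CCAF (adjusted p = 6.5e-05, 0.002 and 0.004). SCD, which makes oleate from saturated fatty acids, had 278 and 273 RPKM under enzalutamide against 318 and 295 under DMSO with CRPCCAFs, 170.3 and 168 under enzalutamide against 259 and 257 under DMSO with CCAFs, and 100.2 and 99.98 under enzalutamide against 144 and 146 under DMSO alone. It fell by 0.61 with CCAFs and 0.53 alone, and by only 0.15 with CRPCCAFs, where the call was lost in a fit of those 2 groups by themselves (adjusted p = 0.062). The effect with CRPCCAFs was weaker than that alone by 0.37 and than that with CCAFs by 0.45 (adjusted p = 0.0029 and 0.00089).

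ACLY, which turns citrate into cytosolic acetyl-CoA for both routes, had 124 and 117 RPKM under enzalutamide against 204 and 197 under DMSO with CRPCCAFs, 129 and 130.2 under enzalutamide against 203 and 202 under DMSO with CCAFs, and 94.5 and 91.97 under enzalutamide against 137 and 140.2 under DMSO alone. It fell by 0.73 with CRPCCAFs, 0.64 with CCAFs and 0.57 alone (SE 0.0355). FADS1, a desaturase of polyunsaturated fatty acids, had 33.1 and 32.4 RPKM under enzalutamide against 60.7 and 56.97 under DMSO with CRPCCAFs, 31.5 and 30.7 under enzalutamide against 55.6 and 54.5 under DMSO with CCAFs, and 24.5 and 22.9 under enzalutamide against 41.9 and 40.4 under DMSO alone. Its falls of 0.83, 0.81 and 0.77 with CRPCCAFs, with CCAFs and alone were close in size. Its neighbour FADS2, which acts before it, had 226 and 228 RPKM under enzalutamide against 339 and 345 under DMSO with CRPCCAFs, 210.4 and 212 under enzalutamide against 305 and 298 under DMSO with CCAFs, and 129.7 and 131 under enzalutamide against 204 and 195 under DMSO alone. FADS2 fell by 0.59 with CRPCCAFs, 0.51 with CCAFs and 0.61 alone (adjusted p = 3.4e-07, 1.7e-06 and 2.6e-07), and its enzalutamide libraries in both cocultures stayed above the DMSO libraries of cells alone. ELOVL6, which lengthens palmitate, had 7.63 and 7.52 RPKM under enzalutamide against 10.1 and 9.60 under DMSO with CRPCCAFs, 10.4 and 9.95 under enzalutamide against 11.6 and 11.9 under DMSO with CCAFs, and 9.15 and 8.71 under enzalutamide against 13.6 and 12.8 under DMSO alone. It fell by 0.34 with CRPCCAFs, 0.18 with CCAFs and 0.51 alone, and the call with CCAFs was lost without enzalutamide replicate 2 or DMSO replicate 2 of that coculture (adjusted p up to 0.0918). ACACA, the carboxylase that makes malonyl-CoA, was nearly level at 31.7 to 37.8 RPKM over all libraries. It passed only alone, at -0.18 (adjusted p = 0.016), and not without enzalutamide replicate 2 or DMSO replicate 2 (adjusted p up to 0.104).

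Under DMSO, 5 of the 7 fatty acid genes were higher in either coculture than in cells alone. With CRPCCAFs, 13 of the 29 members were higher and 5 lower than in cells alone, against 14.3% and 16.3% of all genes (30.6% in either direction). With CCAFs, 11 were higher and 2 lower, against 5.47% and 3.99% (9.46% in either direction). The members' median log2 difference was 0.13 in each, and that of all genes -0.020 with CRPCCAFs and -0.0062 with CCAFs. With CRPCCAFs the members' median was 0.21 without CRPCCAF replicate 1 and 0.073 without CRPCCAF replicate 2. Both comparisons use the same 2 libraries of cells alone. No called member had overlapping libraries in any comparison between cultures, which a call with 2 libraries a group largely entails. Here too the share over all called genes was not computed. Fibroblast marker sums, made up mostly of FN1 and COL6A1, also differed between these cultures, as given above. Their part in these differences was not tested.

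Of the fatty acid genes, 5 rose and 1 fell with CRPCCAFs, and 5 rose and 0 fell with CCAFs. SCD averaged 307 ± 16.2 RPKM with CRPCCAFs and 258 ± 1.53 with CCAFs, against 145 ± 1.62 alone (SD, n = 2 each). That was 2.12-fold higher with CRPCCAFs (log2 1.08, adjusted p = 6.2e-08) and 1.78-fold higher with CCAFs (log2 0.83, adjusted p = 1.7e-06). FADS2 rose by 0.78 with CRPCCAFs and 0.59 with CCAFs. ACLY rose by 0.53 and 0.54, FADS1 by 0.50 and 0.41, and FASN by 0.48 and 0.31, each given with CRPCCAFs first and with CCAFs second. ELOVL6 went the other way and fell by 0.39 with CRPCCAFs (adjusted p = 0.00045), and ACACA passed in neither (-0.049 and -0.0085, adjusted p = 0.53 and 0.95).

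Regulators split under DMSO. INSIG1 averaged 71.3 ± 1.20 RPKM with CRPCCAFs and 59.7 ± 3.86 with CCAFs, against 41.5 ± 2.44 alone, and rose by 0.77 and 0.51 (adjusted p = 1e-05 and 0.00042). STARD4 rose by 0.75 with CRPCCAFs and 0.49 with CCAFs (adjusted p = 5.6e-05 and 0.0025). SREBF1 (0.12 and 0.13) and SREBF2 (0.086 and 0.11) did not pass (adjusted p = 0.055, 0.092, 0.069 and 0.056). Among the sterol genes, FDFT1 rose by 0.47 with CRPCCAFs, MSMO1 by 0.36, SC5D by 0.46 and DHCR7 by 0.31. TM7SF2 fell in both cocultures, by 0.41 with CRPCCAFs and 0.39 with CCAFs (adjusted p = 9.8e-05 and 0.00046). Of the mevalonate genes, HMGCS1 rose by 0.25 with CRPCCAFs, while ACAT2 fell by 0.43 and PMVK by 0.39. SQLE was close to cells alone in both cocultures (-0.077 with CRPCCAFs and 0.07 with CCAFs, adjusted p = 0.3 and 0.45).

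With CCAFs, 5 calls under DMSO were lost when 1 library was left out. Those of PMVK (-0.35), FDFT1 (0.22), LSS (0.26), MSMO1 (0.16) and DHCR7 (0.24) had adjusted p up to 0.172, 0.0777, 0.105, 0.232 and 0.223, and each of the 4 libraries ended at least 1 of these calls. With CRPCCAFs, that of LSS (0.23) was lost without replicate 2 of cells alone (adjusted p = 0.064). The calls of SCD, FADS2, FADS1, ACLY, FASN, INSIG1, STARD4 and TM7SF2 held with any 1 library left out in both cocultures.

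**Figure D4:**
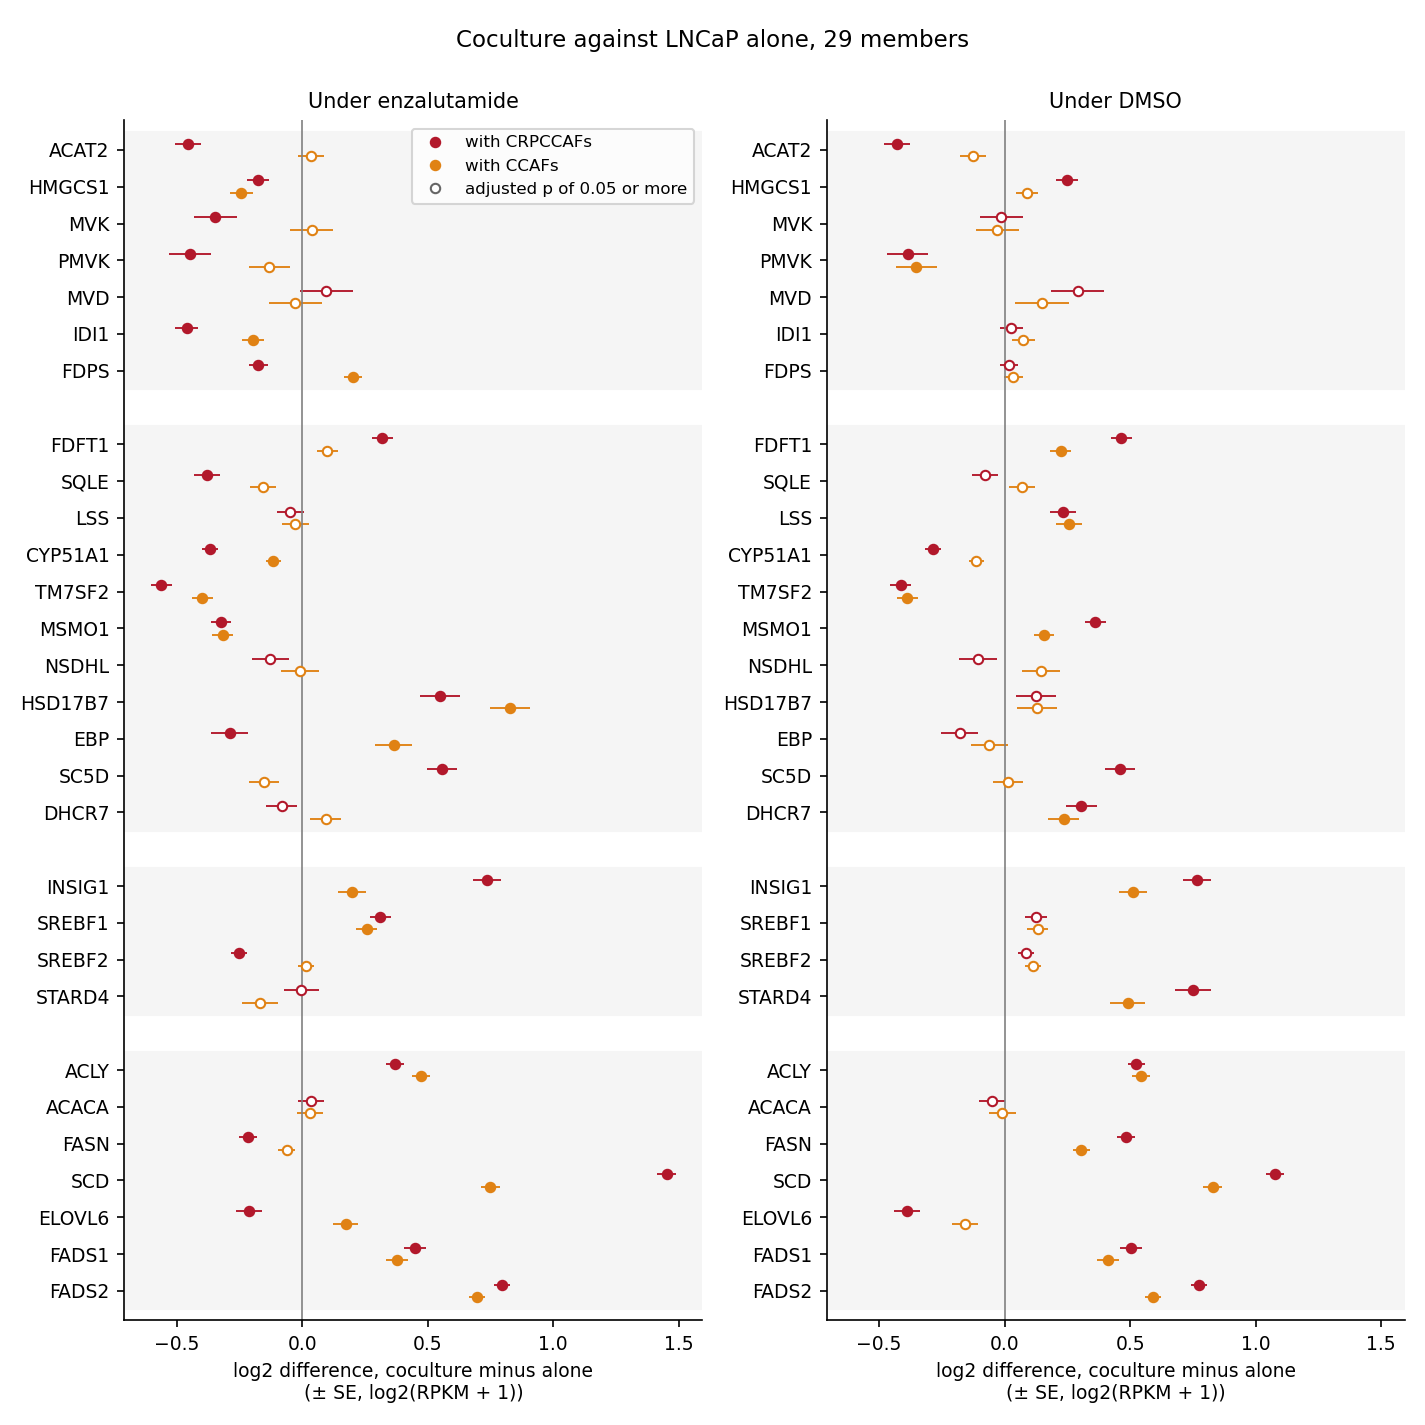
Log2 difference between coculture and cells alone for the 29 members, with CRPCCAFs (red) and with CCAFs (orange), under enzalutamide on the left and DMSO on the right, with bars for the standard error of the fit and open points where the adjusted p was 0.05 or more. SCD and FADS2 lie far to the right in both panels, and TM7SF2 lies left of 0 in both.

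Under enzalutamide, coculture with CRPCCAFs split the pathway, with 9 members higher and 14 lower than in cells alone, against 16.5% and 19.6% of all genes (36.1% in either direction). With CCAFs 10 were higher and 5 lower, against 11.9% and 7.51% (19.4% in either direction). The members' median was -0.13 with CRPCCAFs and 0.031 with CCAFs, and that of all genes -0.029 and 0.015. With CCAFs the members' median was 0.021 without enzalutamide replicate 2 of cells alone and 0.020 under median-of-ratios scaling. Both comparisons again share the 2 libraries of cells alone.

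Of the mevalonate genes, 0 rose and 6 of 7 fell with CRPCCAFs. IDI1 averaged 19.2 ± 0.355 RPKM with CRPCCAFs against 26.8 ± 0.911 alone and fell by 0.46 (adjusted p = 4.8e-05). ACAT2 fell by 0.45, PMVK by 0.45, FDPS by 0.17 and HMGCS1 by 0.18. With CCAFs 2 fell, HMGCS1 by 0.24 and IDI1 by 0.20, and FDPS rose by 0.20 (adjusted p = 0.0046). The fatty acid genes went mostly the other way, with 4 that rose and 2 that fell with CRPCCAFs and 5 that rose and 0 that fell with CCAFs. SCD averaged 276 ± 3.76 RPKM with CRPCCAFs and 169 ± 1.88 with CCAFs, against 100.1 ± 0.138 alone. It was 2.75-fold higher with CRPCCAFs (log2 1.45, adjusted p = 5.1e-09) and 1.69-fold higher with CCAFs (log2 0.75, adjusted p = 1.4e-06). FADS2 rose by 0.80 with CRPCCAFs and 0.69 with CCAFs, ACLY by 0.37 and 0.47, and FADS1 by 0.45 and 0.38. FASN fell by 0.22 with CRPCCAFs and did not pass with CCAFs (-0.062, adjusted p = 0.26).

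HSD17B7 rose by 0.55 with CRPCCAFs and 0.83 with CCAFs (adjusted p = 0.00056 and 9.7e-05). TM7SF2 fell by 0.56 and 0.40 and MSMO1 by 0.32 and 0.32, with CRPCCAFs first and CCAFs second. SC5D rose by 0.56 with CRPCCAFs (adjusted p = 8.3e-05) and did not pass with CCAFs (-0.15, adjusted p = 0.11). SQLE fell by 0.38 with CRPCCAFs and did not pass with CCAFs (-0.16, adjusted p = 0.065). INSIG1 rose by 0.74 with CRPCCAFs and 0.20 with CCAFs, SREBF1 by 0.31 and 0.26, while SREBF2 fell by 0.25 with CRPCCAFs and was near 0 with CCAFs (0.017, adjusted p = 0.76). With 1 library left out, the calls of HMGCS1, MVK, EBP and ELOVL6 with CRPCCAFs were lost (adjusted p up to 0.0858, 0.0584, 0.101 and 0.0705), as were those of IDI1, CYP51A1, EBP, INSIG1 and ELOVL6 with CCAFs (up to 0.109, 0.155, 0.0654, 0.2 and 0.201), and in each comparison every one of the 4 libraries ended at least 1 call.

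The cocultures were also set against each other. Under enzalutamide, 5 members were higher and 13 lower with CRPCCAFs than with CCAFs, against 13.9% and 18.5% of all genes (32.4% in either direction). Under DMSO, 9 were higher and 3 lower, against 7.03% and 6.41% (13.4% in either direction). The members' median was -0.12 under enzalutamide and -0.0074 under DMSO, and that of all genes -0.024 and -0.015. Under DMSO the members' median was 0.011 without CCAF replicate 1 and 0.0024 without CCAF replicate 2. It was 0.044 without CRPCCAF replicate 1 and -0.016 without CRPCCAF replicate 2, so it has no settled sign. SCD was 1.63-fold higher with CRPCCAFs under enzalutamide (log2 0.70, adjusted p = 8.5e-07) and 1.19-fold higher under DMSO (log2 0.25, adjusted p = 0.0029). SC5D rose by 0.71 under enzalutamide and 0.45 under DMSO, and INSIG1 by 0.54 and 0.25 (adjusted p = 7.8e-05 and 0.018). EBP fell by 0.65 under enzalutamide and did not pass under DMSO (-0.12, adjusted p = 0.34). ACAT2 fell by 0.49 under enzalutamide and 0.30 under DMSO, FDPS by 0.38 under enzalutamide and ELOVL6 by 0.38. SREBF2 fell by 0.27 under enzalutamide, where SREBF1 did not pass (0.055), and under DMSO neither passed (-0.027 and -0.0074). HMGCS1 did not pass under enzalutamide (0.067, adjusted p = 0.29) and rose by 0.16 under DMSO. FASN fell by 0.15 under enzalutamide and rose by 0.18 under DMSO. SQLE fell by 0.22 under enzalutamide and did not pass under DMSO (-0.15, adjusted p = 0.093).

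Of the 12 calls between the cocultures under DMSO, that of SC5D alone held under every alternative, 10 were lost with 1 library left out, and the count fell to 6 without CCAF replicate 1, to 4 without CCAF replicate 2 and to 3 with only these 2 groups in the fit. Under enzalutamide 11 of 18 calls held under every alternative. Those of MVK, PMVK, SQLE, TM7SF2, HSD17B7, FASN and FADS2 were lost with 1 library left out (adjusted p up to 0.0592, 0.114, 0.0635, 0.0794, 0.135, 0.0718 and 0.154), and each of the 4 libraries ended at least 1 of these calls.

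The enzalutamide effect itself was compared between cultures, as a difference of differences in the same fit. Between CRPCCAFs and cells alone, 1 member differed upward and 8 downward, against 3.68% and 3.33% of all genes (7.01% in either direction). Between CCAFs and cells alone, 3 differed upward and 6 downward, against 4.56% and 2.45% (7.01% in either direction). Between CRPCCAFs and CCAFs, 1 differed upward and 4 downward, against 2.38% and 4.07% (6.45% in either direction). The members' medians were -0.15, -0.079 and -0.092 in that order, and those of all genes -0.0044, 0.0095 and -0.015. Without DMSO replicate 2 of cells alone, the first was -0.085. These 3 comparisons share libraries with each other. FASN, STARD4, MSMO1, HMGCS1 and IDI1 had more negative effects in both cocultures than alone, and SCD had the weaker fall with CRPCCAFs. TM7SF2, with the largest rise of all members, showed no difference that passed (-0.15 for CRPCCAF minus alone, -0.011 for CCAF minus alone and -0.14 for CRPCCAF minus CCAF, adjusted p = 0.19, 0.94 and 0.24). With CCAFs against cells alone, the calls of HMGCS1, IDI1, EBP, INSIG1 and ELOVL6 were lost when 1 library was left out (adjusted p up to 0.0576, 0.128, 0.14, 0.147 and 0.1), and each of the 8 libraries ended at least 1 of them. The count was 4 without replicate 2 of the CCAF group under either agent, and 5 without CCAF enzalutamide replicate 1 or without replicate 1 of cells alone under either agent. Between CRPCCAFs and cells alone, the calls of SQLE and DHCR7 were lost when 1 library was left out (up to 0.108 and 0.0959), and each of the 8 libraries ended at least 1 of them. Between CRPCCAFs and CCAFs, that of SREBF2 was lost without CCAF enzalutamide replicate 2 or either CCAF library under DMSO (up to 0.0575), and the count was 3 without CCAF DMSO replicate 1 or 2.

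Other lipid genes were looked at as lists, and their counts are read against all genes, of which 30.5% rose and 24.7% fell with CRPCCAFs, 26.8% and 21.5% with CCAFs, and 30.1% and 25.3% alone, with medians of 0.051, 0.046 and 0.042. Nothing particular to a list is read from its counts. A log2 difference of a gene is given below only for cultures where it had 1 of the 2 smallest p-values of its list. Its absence for another culture does not mean that the gene was level there. Of 12 genes of fatty acid oxidation, 8 rose and 2 fell under enzalutamide with CRPCCAFs, 8 rose and 1 fell with CCAFs, and 8 rose and 1 fell alone, with medians of 0.29, 0.36 and 0.21. HADHB, a subunit of the mitochondrial trifunctional protein, averaged 79.9 ± 1.56 RPKM under enzalutamide against 49.98 ± 0.173 under DMSO with CRPCCAFs, 80.9 ± 0.318 against 49.7 ± 2.16 with CCAFs, and 95.2 ± 0.348 against 57.0 ± 1.19 alone. ACADVL, a mitochondrial dehydrogenase, rose by 0.44 with CCAFs. Its means were higher under enzalutamide in the other cultures too. They were 242.0 ± 2.91 against 199.2 ± 13.6 RPKM with CRPCCAFs and 191.3 ± 1.52 against 147.6 ± 3.89 RPKM alone. Of 12 genes of sterol sensing and handling, 3 rose and 4 fell with CRPCCAFs, 3 rose and 5 fell with CCAFs, and 3 rose and 5 fell alone, with medians of -0.12, -0.17 and -0.13. SCARB1, a receptor for lipoprotein cholesterol, fell by 0.74, 0.79 and 0.69 in that order. Rises were given by INSIG2 with CRPCCAFs (0.25), NPC2 with CCAFs (0.41) and STARD3 alone (0.48). The INSIG2 means were higher under enzalutamide in the other cultures too. They were 29.8 ± 0.620 against 23.6 ± 0.114 RPKM with CCAFs and 15.99 ± 1.145 against 11.9 ± 0.3 RPKM alone. Of 6 tested genes of the oxysterol receptor LXR and its targets, 3 rose and 1 fell with CRPCCAFs, and 3 rose and 0 fell with CCAFs and alone, with medians of 0.20, 0.23 and 0.20. ABCG1, a sterol exporter, averaged 7.56 ± 0.0529 RPKM under enzalutamide against 2.95 ± 0.0728 under DMSO with CRPCCAFs and rose by 1.12, and it rose by 0.98 with CCAFs and 0.54 alone. MYLIP rose by 0.34 with CRPCCAFs, and LPCAT3 by 0.40 with CCAFs and 0.30 alone. Of 9 genes of the non-sterol isoprenoid branch, 4 rose and 3 fell with CRPCCAFs, 2 rose and 2 fell with CCAFs, and 1 rose and 3 fell alone, with medians of 0.077, 0.075 and -0.12. PDSS1, which starts the side chain of ubiquinone, fell by 1.22, 0.80 and 1.29, whereas GGPS1, which makes geranylgeranyl diphosphate, rose by 0.44, 0.44 and 0.50 (adjusted p = 1.7e-05, 2.4e-05 and 6.4e-06). Of 19 genes of fatty acid supply, elongation and glycerolipid synthesis, 4 rose and 8 fell with CRPCCAFs, 6 rose and 6 fell with CCAFs, and 7 rose and 6 fell alone, with medians of -0.11, -0.016 and 0.12. ELOVL7, an elongase, averaged 3.67 ± 0.0298 RPKM under enzalutamide against 26.8 ± 0.621 under DMSO with CRPCCAFs, 4.26 ± 0.431 against 30.6 ± 0.143 with CCAFs, and 5.67 ± 0.151 against 30.1 ± 1.75 alone. ELOVL5, another elongase, fell by 1.46 with CRPCCAFs and 1.18 alone, and ACSL3, which activates fatty acids, by 1.54 with CCAFs.

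Reads of some members could not be told from those of overlapping genes. In the GENCODE annotation, exons of 14 members share bases with a gene on the opposite strand, and no source used here says whether reads were counted by strand. Among overlapping genes that the table lists, ACAT2 shares 26.5% of its exon bases with SOD2 (5.29 to 10.8 RPKM) and 9.23% with TCP1 (89.8 to 159 RPKM), FDPS 18.6% with RUSC1-AS1 (4.58 to 7.22 RPKM) and IDI1 14.8% with IDI2-AS1 (0.764 to 1.87 RPKM). FADS1 and FADS2 overlap by 490 bases. CYP51A1 shares 79.4% of its exon bases with AC000120.2 on the same strand, ACAT2 33.9% with SOD2-OT1 and HMGCS1 15.0% with AC114947.2. The deposited values do not list these names, so reads are not shown to have been counted for them. The authors may have counted with another annotation than the GENCODE one used here. The values of all members that share exon bases are uncertain, to an extent that was not tested.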

How the data were processed

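RNA-seq was measured in 12 LNCaP libraries. The authors deposited RPKM per gene name for them in 1 table, per the file headers; HISAT2 and HTSeq are among the tools and hg19 and mm10 the builds that the submitters' processing notes name, and how reads of different species were separated and whether strand was used are not given in the sources used here. Per the labels, libraries were made with an NEBNext Ultra kit. Names turned into dates (27) were left out, as were the fibroblast libraries.

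Genes at 1 RPKM or more in at least 2 of 12 libraries (16042 of 44564) were compared on log2 values of the deposited RPKM plus 1 (limma 3.58.1, trend, R 4.3.3), with 6 groups, no block and 6 residual degrees of freedom, two-sided, and Benjamini-Hochberg adjustment over all genes in each comparison. Fold changes in text are ratios of mean RPKM. Reads behind the values were recovered from the smallest RPKM steps. With 2 replicates a group, p-values measure only the spread between these samples. Members and lists were chosen with earlier results of these data known. Library values are given for the 3 called members with the largest rise and the 3 with the largest fall in each comparison and for SREBF1, SREBF2, INSIG1, HMGCS1, SQLE, FASN and SCD, 22 in all, and the others by range. Of other lists, counts and genes among the 2 smallest p-values are given. Replicate numbers do not pair the samples (correlations of deviations -0.0617 to 0.084). Alternatives were a pseudocount of 0.1, no filter, median-of-ratios scaling, a replicate block, each library left out, and only the 2 groups compared.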

Additional observations from a re-analysis of the deposited data

Results flagged for a closer look

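The enzalutamide effect differed between cultures for these members, by limma's test of the difference with an adjusted p under 0.05. Each value is the log2 effect in the first culture minus that in the second. For CRPCCAFs minus cells alone, SCD was at 0.37, and STARD4 at -0.75, FASN at -0.70, MSMO1 at -0.68, IDI1 at -0.49, HMGCS1 at -0.42, DHCR7 at -0.39, SREBF2 at -0.34 and SQLE at -0.30. For CCAFs minus cells alone, HSD17B7 was at 0.70, EBP at 0.43 and ELOVL6 at 0.33, and STARD4 at -0.66, MSMO1 at -0.47, FASN at -0.37, HMGCS1 at -0.33, INSIG1 at -0.31 and IDI1 at -0.27. For CRPCCAFs minus CCAFs, SCD was at 0.45, and EBP at -0.54, FDPS at -0.36, FASN at -0.33 and SREBF2 at -0.24. Groups of 2 libraries are too small for a check of single samples.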

How the results depend on the processing

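Of 197 calls of members over 12 comparisons, 145 held under every alternative run, 52 were lost in at least 1 and 19 were gained in at least 1. No direction reversed. Left-out libraries gave 8 to 10 members for CCAF coculture under DMSO (13 with all libraries), 4 to 9 for CRPCCAFs against CCAFs under DMSO (12, and 3 with only the 2 groups compared), 4 to 7 for the difference of effects between CCAFs and cells alone (9), and 3 to 7 for that between CRPCCAFs and CCAFs (5). Over all genes, left-out libraries gave 640 to 826 calls for CCAF coculture under DMSO (1518), 827 to 1959 for CRPCCAFs against CCAFs under DMSO (2156), 1673 to 1946 for CCAF coculture under enzalutamide (3107), and 627 to 814 (1125), 559 to 1123 (1125) and 582 to 1362 (1034) for the differences of effects of CCAFs minus alone, CRPCCAFs minus alone and CRPCCAFs minus CCAFs. With only the 2 groups compared, 3111 genes passed for CRPCCAF coculture under DMSO (4905) and 726 for CRPCCAFs against CCAFs under DMSO (2156). With the replicate block, 22 members passed for enzalutamide alone, 26 with CCAFs and 10 for CRPCCAFs against CCAFs under DMSO. Replicate numbers were only shared names here, since no correlation of deviations passed 0.1. Where a library was left out, the lone sample of its group is assumed to vary like the other groups; the cause of each lost call was not tested. Counting error of at most 5.77% and 2 libraries a group limit small differences. In every group the 2 libraries differed by more than counting error gives. The chi-square of their reads per degree of freedom was lowest with CCAFs under DMSO (1.63) and highest with CRPCCAFs under DMSO (4.39). The fit takes a single spread per gene over all groups, so such inequality between groups is not modelled.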
